A study of Mus musculus with 15 samples.

Results

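Vesicle trafficking genes were followed on the arrays through 75 probes of 65 genes, out of 8058 tested probes and 20205 probes in all. A probe was taken if its only gene symbol began with Rab, Arf, Arl, Vps or Snx and a digit, or with Sec2, Sec6 or Trappc, or named a Copa, Copb, Cope, Copg or Copz subunit. It also needed at least 4 arrays with a value in each dye orientation. These names occurred on 164 probes of 135 genes, so 89 probes stayed below the value filter and 70 genes had no tested probe. Another 15 probes carried a family name beside other symbols and were left out. Of the tested genes, 55 had 1 probe and 10 had 2.

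Brain RNA of mice homozygous for O377, the line that carries an allele of Crybb2, a lens beta-crystallin gene, was set against brain RNA of wild-type mice on 15 two-colour arrays. Every array compared an RNA pool of 4 wild-type brains with RNA of 5 homozygous brains. On 7 arrays the mutant RNA was in Cy5 and the wild-type pool in Cy3, and on the other 8 the dyes were exchanged. Arrays are numbered 1 to 15 here in accession order. The labels give no age, sex or strain, and tie no array to an animal. The wild-type brains were pooled, so they count as 1 control sample on any array and give no spread between animals. The mutant RNA carries the same label on all 15 arrays, naming the same 5 brains, so the arrays may be repeats of 1 pair of samples. In what follows n counts arrays, and every p-value rests on array-to-array spread, part or all of which may be technical.

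Rab, Arf and Arl proteins are small GTPases that switch between a GTP-bound form on a membrane and a GDP-bound form, and recruit motors, tethers and coats to the membrane they mark. COPI and COPII coats bud vesicles between the endoplasmic reticulum and the Golgi. TRAPP, HOPS and CORVET complexes act where a vesicle meets its target, and sorting nexins, retromer and ESCRT proteins sort cargo on endosomes. Rab9 lies on late endosomes and acts in the return of mannose 6-phosphate receptors, the carriers of newly made lysosomal enzymes, to the trans-Golgi network. In neurons this machinery serves the turnover of synaptic vesicles and the traffic of receptors and lysosomes along axons and dendrites.

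The deposited value of a probe on an array is the log ratio of the 2 channels, taken as log2. The labels do not state which channel is the numerator, the mutant one or the Cy5 one. Each probe therefore has 2 coefficients on the log2 scale. The dye-switching component is the mean with mutant RNA in Cy5 minus the mean with mutant RNA in Cy3, divided by 2. With Cy5 as the numerator it is the genotype difference, and a positive value means higher in the mutant. With the mutant channel as the numerator it is a dye effect of the probe. The shared component is the mean of both orientation means, and in that second case it is the genotype difference. Which of these holds cannot be told apart from these values, so both components are given with no genotype direction attached.

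Between 62 and 74 of the 75 probes had a value on an array, and 37 had one on all arrays. Of 1037 values of these probes, 36 lay beyond 1 in size, which is 3.47%, against 3.64% over all tested probes. Array 10 had the widest spread of all probes, with an interquartile range of 0.892, and 1 of its 69 member values lay beyond 1. A ratio gives no level of a gene, so the brain tissue could not be checked by the level of its markers. Among marker genes of neurons, 4 of 8 were tested and Thy1, a neuronal surface protein, passed the test with a dye-switching coefficient of -0.53 ± 0.11 (SE; adjusted p = 0.0276). The other 3, Eno2, Nefm and Rbfox3, had coefficients of 0.06, 0.02 and 0.01 and did not pass. None of the tested markers of astrocytes, oligodendrocytes, microglia, endothelium or erythrocytes passed in either component, and 0 of 4 choroid plexus markers had a tested probe. Tested were 3 of 7 astrocyte, 1 of 6 oligodendrocyte, 2 of 6 microglia, 1 of 5 endothelial and 1 of 3 erythrocyte genes. The oligodendrocyte gene, Mbp, had dye-switching coefficients of -0.22 ± 0.09 and -0.03 ± 0.08 (SE) on its 2 probes.

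Rab9 was the only member past the threshold. With mutant RNA in Cy5, its log2 ratios were 0.93, 0.83, 0.65, 0.33, 0.57, 1.40 and 0.46 on arrays 1, 2, 5, 6, 9, 10 and 13. With mutant RNA in Cy3 they were -0.68, -1.05, -1.22, -0.81, -1.13, -0.42, -0.81 and -0.17 on arrays 3, 4, 7, 8, 11, 12, 14 and 15. All values of the first orientation were positive and all of the second negative, so the orientations did not overlap. Such a separation occurred in 73 of 8058 tested probes (0.906%), and in 1 of the 75 members.

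The orientation means of Rab9 were 0.74 ± 0.36 (SD, n = 7) and -0.79 ± 0.36 (SD, n = 8). The dye-switching component was 0.76 ± 0.09 (SE, 95% interval 0.57 to 0.96), a ratio of 1.70, with an adjusted p of 0.000166 in limma. All 15 arrays lay on that side. An exact two-sided permutation test over the 6435 ways to assign the orientations gave p = 0.000155, the smallest this design allows. Rab9 was singled out with this result known. The shared component of Rab9 was -0.02 ± 0.09 (SE, 95% interval -0.21 to 0.17; adjusted p = 0.949).

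The arrays were taken up in accession order as runs of 4, each with both orientations, the last run having 3. The labels name no runs, and the accession order has a gap between arrays 3 and 4, inside the first run. The Rab9 dye-switching coefficient was 0.88, 0.75, 0.88 and 0.48 in the 4 runs, so all were positive and the last was the lowest. With 1 value per run and orientation in the fit, the coefficient was 0.75 and the call was lost, at an adjusted p of 0.144. That fit called 2 of all tested probes, against 52 with all arrays. With 1 array left out at a time it lay between 0.71 and 0.81. A single tested probe stood for Rab9, so no second probe of the gene could be set beside it.

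**Figure D1:**
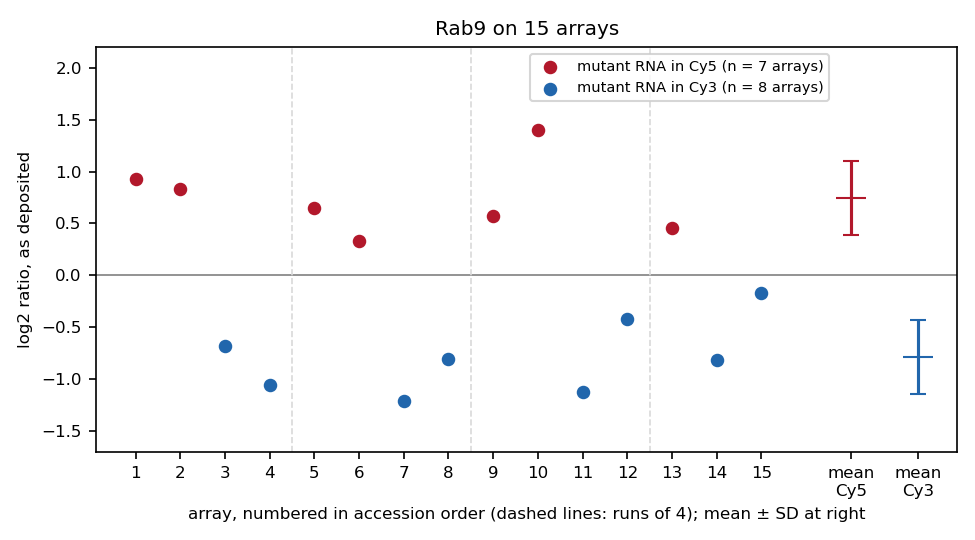
Deposited log2 ratio of Rab9 on each of the 15 arrays (horizontal axis, in accession order), with the arrays that carried mutant RNA in Cy5 and in Cy3 in separate colours, and each orientation's mean with its SD on the right. The 7 Cy5 arrays sit between 0.33 and 1.40 and the 8 Cy3 arrays between -1.22 and -0.17, with no overlap.

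Across all genes, 52 of 8058 probes (0.645%) passed the adjusted threshold of 0.05 in the dye-switching component, and Rab9 was 1 of 75 members (1.33%). In the shared component limma called 0 of 8058 probes (0%) and 0 members. Robust regression called 107 probes there, of which 0 were members. At an unadjusted p under 0.05, 771 probes (9.57%) passed in the dye-switching component, and 6 of the 75 members (8%). In the shared component 765 probes (9.49%) passed at that level, and 9 members (12%). Apart from Rab9, the members' shares were thus near those of all tested probes. The median dye-switching coefficient of the members was 0.02, against 0.01 over all tested probes, and 45 of 75 were positive (60%), against 52.8%. The medians of the shared component were 0.01 and 0.00, with 39 members positive (52%), against 48.4%.

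The 95% intervals of the other 74 probes rest on the same array-to-array spread as the p-values. They therefore need not bound a difference between mutant and wild-type animals. In 69 of these probes the interval of the dye-switching coefficient lay within 1.5-fold of 0, which is 0.585 on the log2 scale. The exceptions were Rab3b, Arf4, Vps33a probe 2, Sec61g and Snx32. In 72 of the 74 the interval lay below the coefficient of Rab9, the exceptions being Rab3b and Arf4, whose intervals reached 1.33 and 0.79. Rab9 was singled out with its coefficient known, so this count is not a test. It also leaves aside the interval of Rab9 itself, 0.57 to 0.96. In the shared component, 68 of the 75 intervals lay within 1.5-fold of 0.

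**Figure D2:**
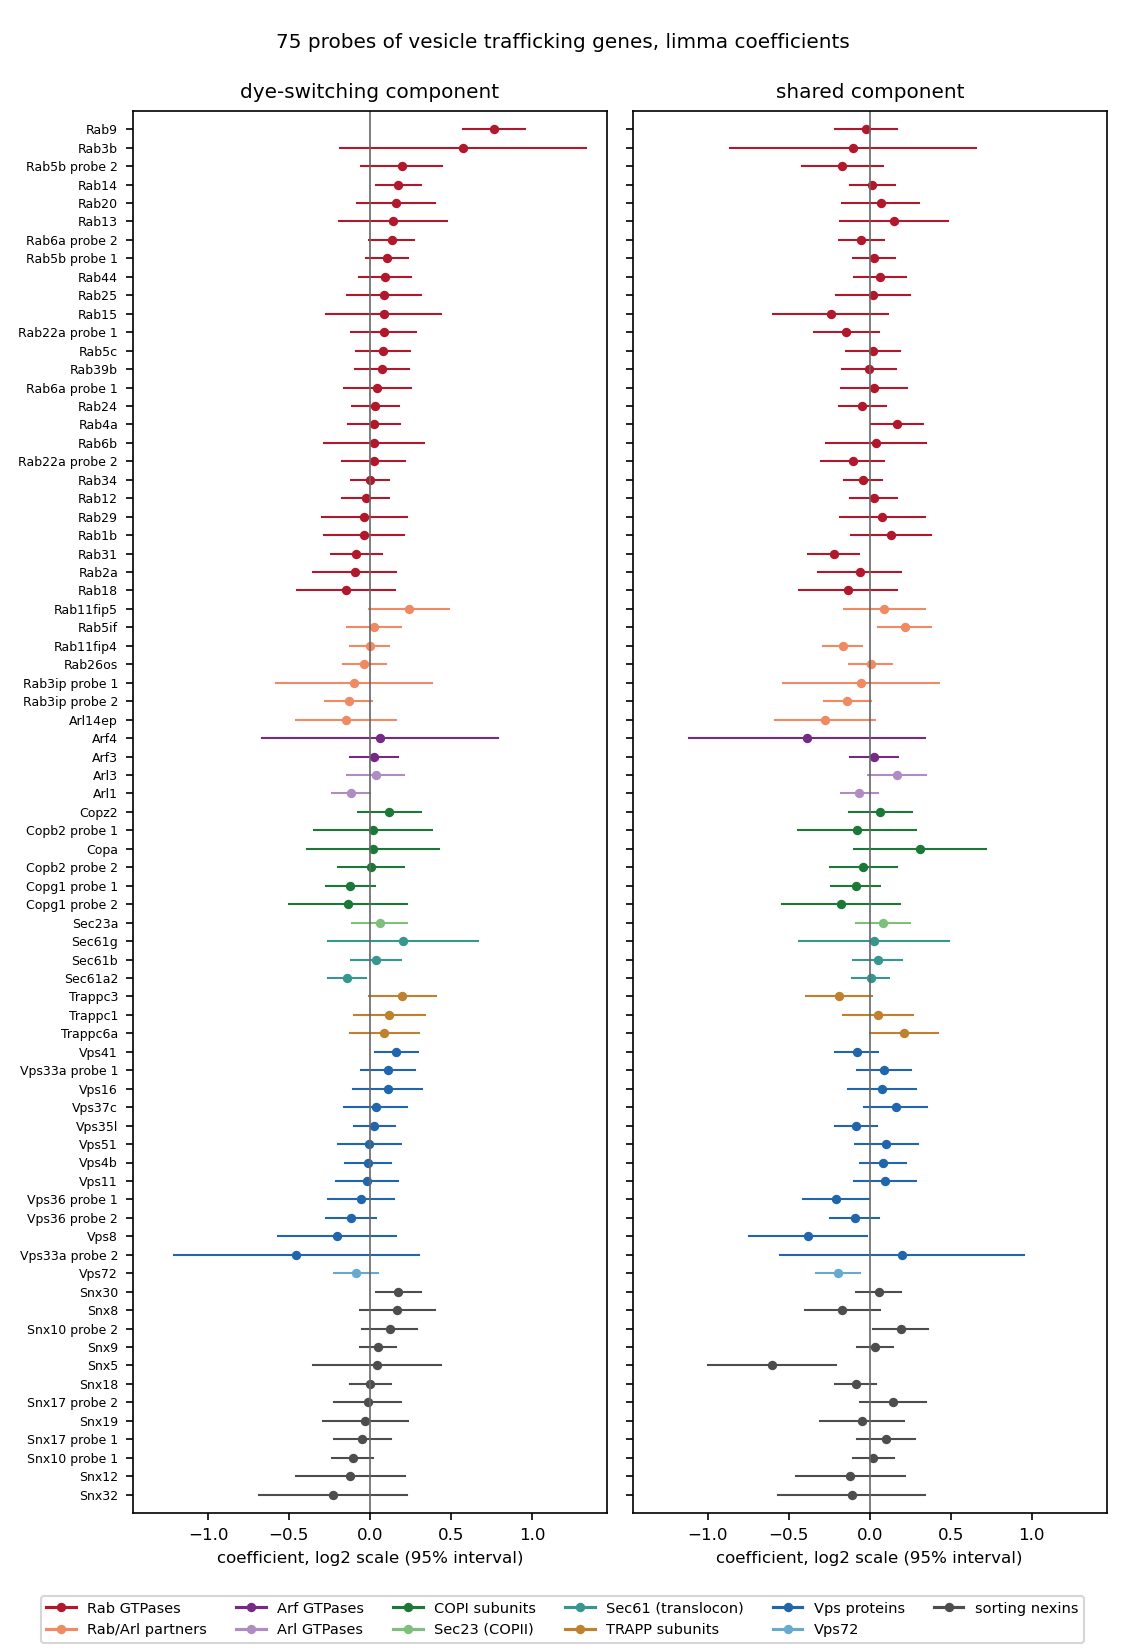
Dye-switching component (left) and shared component (right) of the 75 probes on the log2 scale, with 95% intervals from limma; probes are ordered by role, which the colours mark, and by coefficient within a role. Rab9 at 0.76 stands apart on the left, and in the right panel Snx5 at -0.60 is the lowest, with no member past the adjusted threshold there.

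The Rab GTPases other than Rab9 comprised 25 probes of 22 genes, with dye-switching coefficients from -0.15 to 0.57. Of these 18 were positive, with a median of 0.07, and none passed the adjusted threshold. Rab3b, a GTPase of secretory and synaptic vesicles, had 7 values with mutant RNA in Cy5, from -0.04 to 0.96 with a median of 0.58, and 7 in Cy3, from -5.42 to 0.55 with a median of -0.01. The orientations overlapped, and the lowest value was that of array 8. The coefficient, 0.57 ± 0.36 (SE; adjusted p = 0.662), was the second largest of the members, and without that array it was 0.18.

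Rab14, which acts between the Golgi and early endosomes, ranged from -0.19 to 0.59 with a median of 0.08 in Cy5, and from -0.41 to 0.07 with a median of -0.11 in Cy3. The ranges overlapped, and 12 of 15 arrays lay on the side of the coefficient, which was 0.17 ± 0.07 (SE; adjusted p = 0.389).

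Rabs of early and recycling endosomes, a group formed after their values were seen, are Rab4a, Rab5b, Rab5c, Rab14 and Rab22a. They gave 7 probes of 5 genes, of which 7 had positive dye-switching coefficients with a median of 0.08. Since the group was formed on these values, that count is not a test. It also depends on which Rabs were taken in: Rab15 and Rab31, described below as endosomal too, were left out and had 0.09 and -0.08. Of all 25 Rab probes other than Rab9, 18 were positive with a median of 0.07. Rab5b and Rab5c drive fusion of early endosomes. The 2 probes of Rab5b had coefficients of 0.11 ± 0.06 (SE) and 0.20 ± 0.11 (SE), and that of Rab5c was 0.08 ± 0.08 (SE). Rab22a, also of early endosomes, had 0.08 ± 0.09 and 0.02 ± 0.09 (SE) on its 2 probes. In the shared component 4 of these 7 probes were positive. Rab4a, which returns cargo from early endosomes to the surface, ranged from -0.41 to 0.64 in Cy5 with a median of 0.16, and from -0.10 to 0.46 in Cy3 with a median of 0.11. The orientations shared part of their range, and 11 of 15 arrays were positive. The shared coefficient of Rab4a was 0.17 ± 0.08 (SE; adjusted p = 0.516).

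Rabs of the endoplasmic reticulum and Golgi, a group formed in the same way, gave 6 probes, for Rab1b, Rab2a, Rab6a, Rab6b and Rab18, of which 3 had positive dye-switching coefficients, with a median of -0.01. Rab6a and Rab6b guide retrograde transport at the Golgi, and the 2 probes of Rab6a had coefficients of 0.05 ± 0.10 and 0.14 ± 0.07 (SE). Rab1b, of the route from endoplasmic reticulum to Golgi, had -0.04 ± 0.12 (SE). Rab18, found on lipid droplets and the endoplasmic reticulum, had the lowest coefficient of the Rabs, -0.15 ± 0.14 (SE). Rab6b was at 0.02 ± 0.14 (SE).

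Rab2a, a Golgi GTPase, was chosen after its values were seen, because a fit that gives distant values less weight called it. In Cy5 it read from -0.66 to 0.24 with a median of -0.13, and from -1.37 to 0.38 in Cy3 with a median of 0.21. The value of -1.37 was on array 8, and the other 7 in Cy3 were all positive, the lowest being 0.14. Its coefficient was -0.09 ± 0.12 (SE; adjusted p = 0.838) with all values weighted alike, and -0.17 ± 0.04 (SE; adjusted p = 0.0358) with robust regression. That fit called 204 of the 8058 tested probes, and 2 of the 75 members, Rab9 and Rab2a. On array 8, 5 of 72 member values lay beyond 1 in size, and on array 11 5 of 71, the most of any array. Over all tested probes 4.5% and 3.43% of the values did on these arrays.

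Rab31, which acts between the trans-Golgi network and endosomes, ranged from -0.87 to 0.08 in Cy5 with a median of -0.31, and from -0.52 to 0.13 in Cy3 with a median of -0.16. Values of the orientations overlapped, and 11 of 14 arrays were negative. The shared coefficient of Rab31 was -0.22 ± 0.07 (SE; adjusted p = 0.396). Rab15, an endosomal GTPase of neurons, had the lowest shared coefficient of the Rabs, -0.24 ± 0.17 (SE), with values of -1.52, -1.76 and -1.17 on arrays 7, 8 and 13. Its other values lay within 0.53 of 0. For the remaining Rabs, which were Rab12, Rab13, Rab20, Rab24, Rab25, Rab29, Rab34, Rab39b and Rab44, dye-switching coefficients lay within 0.16 of 0, that of Rab20, and shared coefficients within 0.15, that of Rab13. Among them Rab39b, a neuronal GTPase whose loss is linked to intellectual disability, had 0.07 ± 0.08 (SE), and Rab29, a partner of the kinase Lrrk2, had -0.03 ± 0.12 (SE) in the dye-switching component.

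**Figure D3:**
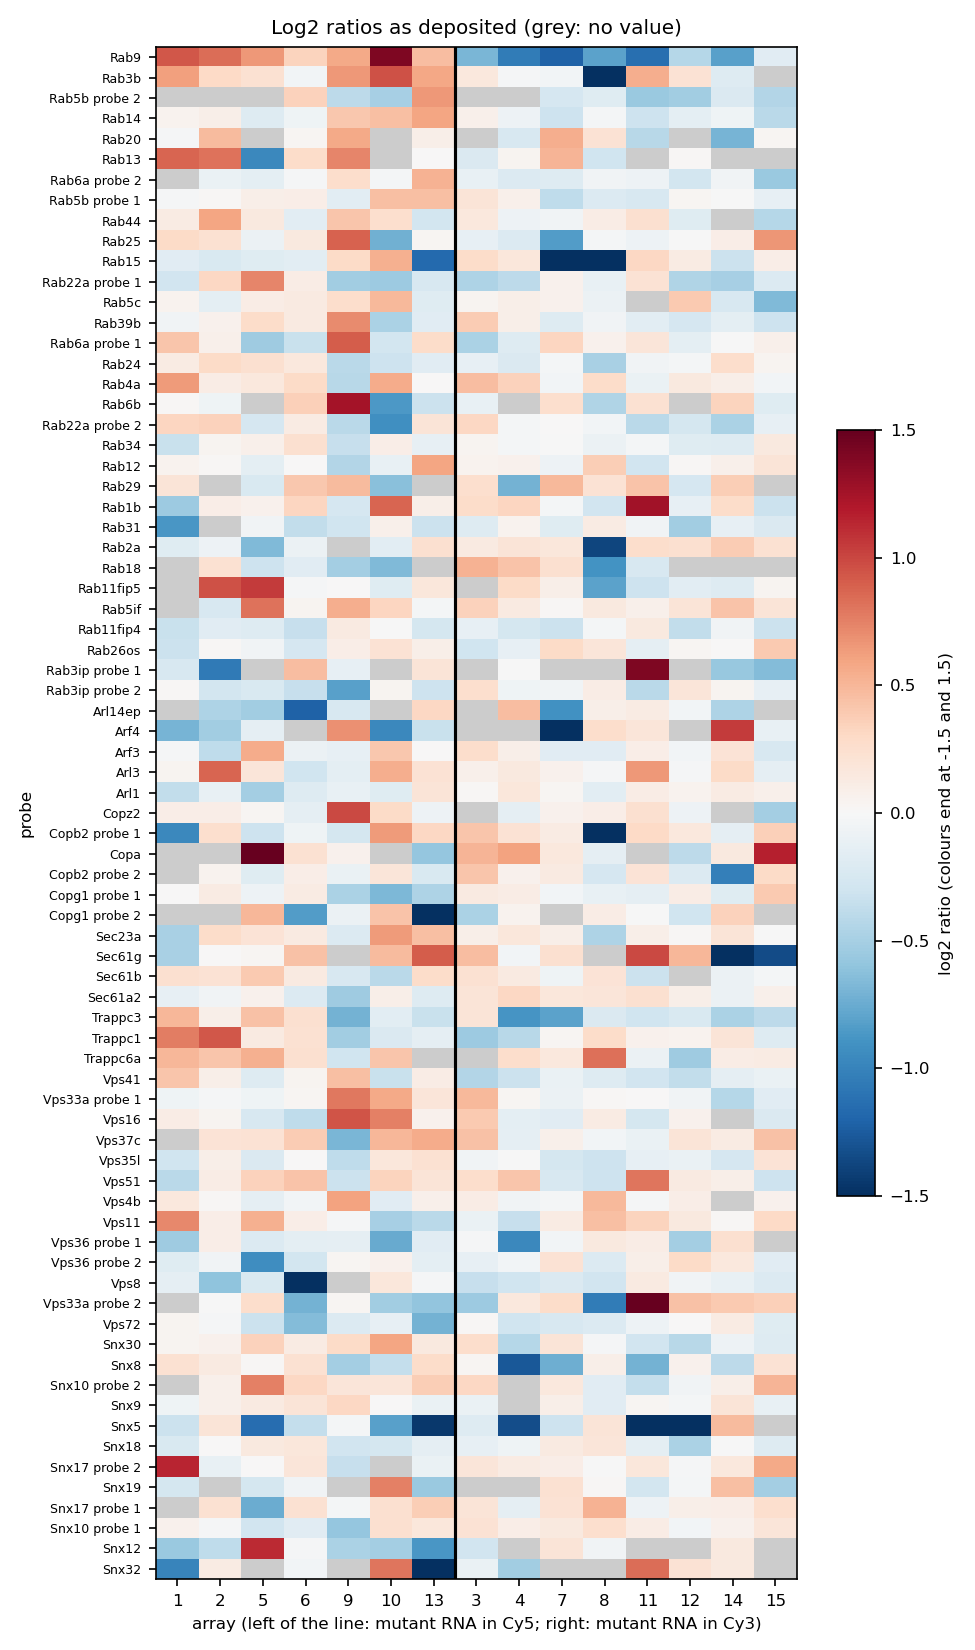
Deposited log2 ratios of the 75 probes (rows, ordered by role) on the 15 arrays (columns, grouped by dye orientation), with colours that end at -1.5 and 1.5 and grey where a probe has no value. The row of Rab9 takes one colour in Cy5 and the opposite one in Cy3, while the other rows have scattered single values, such as those of Rab3b on array 8 and Vps33a probe 2 on array 11.

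Partners and namesakes of the Rab and Arl proteins gave 7 probes of 6 genes, with 2 positive dye-switching coefficients and a median of -0.04. Rab11fip5, an effector that links Rab11 to recycling endosomes, ranged from -0.18 to 1.05 in Cy5 with a median of 0.08, and from -0.80 to 0.29 in Cy3 with a median of -0.15. The ranges overlapped, and the coefficient, 0.24 ± 0.12 (SE; adjusted p = 0.537), was the third largest of the members. Rab11fip4, a related effector, ranged from -0.35 to 0.14 in Cy5 and from -0.37 to 0.15 in Cy3, with medians of -0.19 in both. On 13 of 15 arrays it was negative. Rab11fip4 stood at 0.00 ± 0.06 (SE) in the dye-switching and at -0.17 ± 0.06 (SE; adjusted p = 0.396) in the shared component.

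Rab5if, named for an interaction with Rab5 and also part of a membrane protein insertion complex of the endoplasmic reticulum, ranged from -0.24 to 0.81 in Cy5 with a median of 0.18, and from 0.02 to 0.43 in Cy3 with a median of 0.17. The orientations shared part of their range, and the Cy3 values were all positive. The shared coefficient of Rab5if was 0.22 ± 0.08 (SE; adjusted p = 0.424). Rab3ip, the exchange factor Rabin8, had dye-switching coefficients of -0.10 ± 0.22 and -0.13 ± 0.07 (SE) on its 2 probes. Rab26os, annotated as a transcript opposite to Rab26, had -0.04 ± 0.06 (SE). Arl14ep, an effector of Arl14, had -0.15 ± 0.14 (SE) and a shared coefficient of -0.27 ± 0.14 (SE; adjusted p = 0.553).

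Of the Arf and Arl GTPases 4 were tested. Arf3 and Arf4 recruit coats to Golgi membranes, and their dye-switching coefficients were 0.02 ± 0.07 and 0.06 ± 0.34 (SE). With mutant RNA in Cy3 Arf4 had 5 values, -3.63, 0.26, 0.18, 1.04 and -0.11 on arrays 7, 8, 11, 14 and 15, and its 6 values in Cy5 ran from -0.96 to 0.68 with a median of -0.43. The value of array 7 stood below all others. The shared coefficient was -0.39 ± 0.34 (SE; adjusted p = 0.715), and 0.01 without that array.

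Arl1, which brings golgin tethers to the trans-Golgi, ranged from -0.51 to 0.20 in Cy5 with a median of -0.18, and from -0.16 to 0.17 in Cy3 with a median of 0.07. The ranges overlapped. The dye-switching coefficient of Arl1 was -0.12 ± 0.05 (SE; adjusted p = 0.508), with 13 of 15 arrays on that side. Arl3, which releases cargo in cilia, had 0.03 ± 0.08 (SE).

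Subunits of the COPI coat gave 6 probes of 4 genes, with dye-switching coefficients from -0.13 to 0.12 and a median of 0.01. Copa, the alpha subunit, had 4 values in Cy5, which were 1.61, 0.23, 0.06 and -0.58 on arrays 5, 6, 9 and 13, and 7 in Cy3, from -0.39 to 1.17 with a median of 0.16. Values of both signs occurred in each orientation. Its shared coefficient, 0.31 ± 0.19 (SE; adjusted p = 0.602), was the largest of the members, and without array 5 it was 0.10. Copb2, the beta-prime subunit, had 0.02 ± 0.17 and 0.01 ± 0.10 (SE) in the dye-switching component, Copg1, a gamma subunit, -0.12 ± 0.07 and -0.13 ± 0.17 (SE), and Copz2, a zeta subunit, 0.12 ± 0.09 (SE). The COPII coat was represented by Sec23a alone, a subunit of its inner layer, at 0.06 ± 0.08 (SE).

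The names beginning with Sec6 also took in the Sec61 channel, through which new proteins enter the endoplasmic reticulum. Sec61a2, an isoform of its pore subunit, ranged from -0.53 to 0.08 in Cy5 with a median of -0.12, and from -0.09 to 0.31 in Cy3 with a median of 0.17. The ranges overlapped between -0.09 and 0.08. The dye-switching coefficient was -0.14 ± 0.05 (SE; adjusted p = 0.402), with 12 of 15 arrays on that side. The small subunits Sec61b and Sec61g had 0.04 ± 0.07 and 0.20 ± 0.22 (SE).

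TRAPP complexes tether vesicles and activate Rab proteins at the Golgi. Trappc1, Trappc3 and Trappc6a had dye-switching coefficients of 0.12 ± 0.10, 0.20 ± 0.10 and 0.09 ± 0.10 (SE), none past the threshold. The values of Trappc6a ran from -0.30 to 0.53 in Cy5 with a median of 0.42, and from -0.53 to 0.83 in Cy3 with a median of 0.12. Values of the orientations overlapped, and 10 of 13 values were positive. The shared coefficient was 0.21 ± 0.10 (SE; adjusted p = 0.524) for Trappc6a and -0.19 ± 0.10 (SE; adjusted p = 0.543) for Trappc3.

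Genes with the Vps prefix, other than Vps72, gave 12 probes of 10 genes. Of these probes 5 were positive in the dye-switching component, with a median of -0.01. The tethering complexes HOPS, of late endosomes and lysosomes, and CORVET, of early endosomes, share the core subunits Vps11, Vps16 and Vps33a. Vps41, a subunit of HOPS, ranged from -0.33 to 0.45 in Cy5 with a median of 0.09, and from -0.44 to -0.10 in Cy3 with a median of -0.24. The ranges overlapped, and the Cy3 values were all negative. The coefficient was 0.16 ± 0.06 (SE; adjusted p = 0.402), with 13 of 15 arrays on that side.

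Vps8, a subunit of CORVET, ranged from -2.70 to 0.17 in Cy5 with a median of -0.19, and from -0.35 to 0.13 in Cy3 with a median of -0.21. The orientations shared part of their range, and the value of -2.70 was on array 6. Coefficients were -0.21 ± 0.17 (SE; adjusted p = 0.756) in the dye-switching and -0.38 ± 0.17 (SE; adjusted p = 0.516) in the shared component. Without array 6 they were 0.00 and -0.17.

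The 2 probes of Vps33a stood on opposite sides. Probe 1 ranged from -0.07 to 0.79 in Cy5 with a median of 0.03, and from -0.43 to 0.49 in Cy3 with a median of -0.02. Probe 2 ranged from -0.71 to 0.26 in Cy5 with a median of -0.26, and from -1.05 to 5.20 in Cy3 with a median of 0.32. The value of 5.20 was on array 11, where probe 1 read 0.01. Probe 1 had a dye-switching coefficient of 0.11 ± 0.08 (SE), and that of probe 2, -0.46 ± 0.36 (SE; adjusted p = 0.730), was the lowest of all members, or -0.13 without array 11. Vps16 and Vps11 had 0.11 ± 0.10 and -0.02 ± 0.09 (SE).

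**Figure D4:**
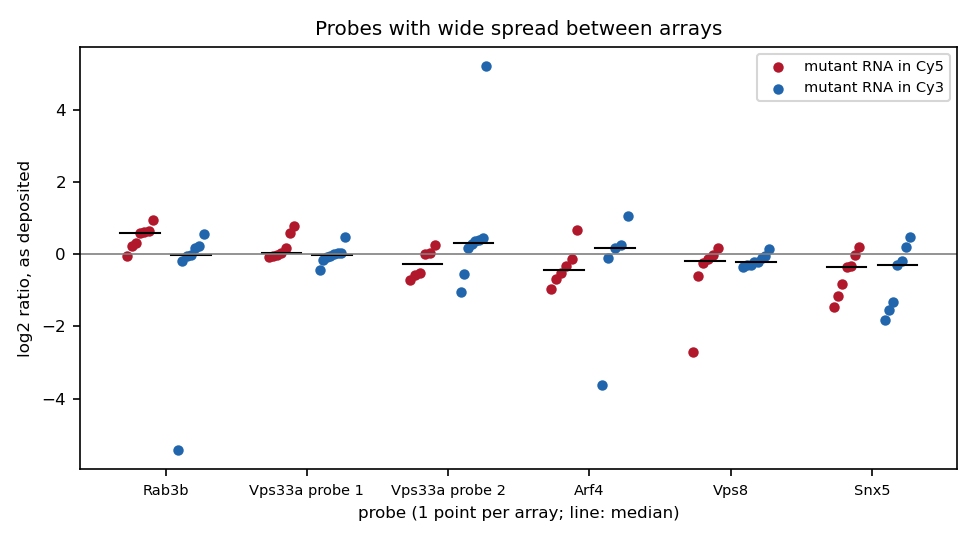
Deposited log2 ratios of 6 probes (horizontal axis), with 1 point per array, the dye orientation in colour and a line at each orientation's median. Probes with wide values (Rab3b, Vps33a probe 2, Arf4, Vps8 and Snx5) are shown beside the other probe of Vps33a. Single arrays carry the extreme values of Rab3b (-5.42), Vps33a probe 2 (5.20), Arf4 (-3.63) and Vps8 (-2.70), while Snx5 has 5 values below -1.

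ESCRT proteins, which sort ubiquitinated cargo into multivesicular bodies, gave 4 probes of 3 genes with a median dye-switching coefficient of -0.03. Vps36 is a subunit of ESCRT-II, and its probe 1 ranged from -0.75 to 0.09 in Cy5 with a median of -0.17, and from -0.97 to 0.24 in Cy3 with a median of -0.02. Values of the orientations overlapped, and 10 of 14 values were negative. Shared coefficients were -0.21 ± 0.10 (SE; adjusted p = 0.524) for that probe and -0.09 ± 0.07 (SE) for probe 2. Vps4b, the ATPase that takes ESCRT filaments apart, had a dye-switching coefficient of -0.01 ± 0.07 (SE), and Vps37c, of ESCRT-I, 0.03 ± 0.09 (SE). Vps35l, a subunit of the retriever complex, and Vps51, of the GARP tether, had 0.03 ± 0.06 and 0.00 ± 0.09 (SE).

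Vps72 is a chromatin protein of the nucleus that shares the prefix, and it is kept apart here. It ranged from -0.71 to 0.04 in Cy5 with a median of -0.21, and from -0.29 to 0.12 in Cy3 with a median of -0.13. The ranges overlapped, with 11 of 15 values negative, and the shared coefficient was -0.20 ± 0.06 (SE; adjusted p = 0.393).

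Sorting nexins gave 12 probes of 10 genes, 6 of them positive in the dye-switching component, with a median of -0.01. Snx5, a membrane-bending nexin that works on tubules from endosome to Golgi, ranged from -1.45 to 0.20 in Cy5 with a median of -0.35, and from -1.83 to 0.47 in Cy3 with a median of -0.31. Of these 14 values 11 were negative, and 5 lay below -1, on arrays 4, 5, 11, 12 and 13, which include both orientations. The shared coefficient of Snx5, -0.60 ± 0.19 (SE; adjusted p = 0.382), was the lowest of the members. In the dye-switching component Snx5 was at 0.05 ± 0.19 (SE).

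Snx30, a partner of Snx4 in endosomal recycling, ranged from 0.04 to 0.59 in Cy5 with a median of 0.15, and from -0.43 to 0.26 in Cy3 with a median of -0.14. The ranges overlapped, and the Cy5 values were all positive. The dye-switching coefficient was 0.17 ± 0.07 (SE; adjusted p = 0.389), with 13 of 15 arrays on that side. Snx32 is a close relative of Snx5. Its 5 values in Cy5 were -0.99, 0.12, -0.04, 0.81 and -1.59 on arrays 1, 2, 6, 10 and 13, and its 5 in Cy3 were -0.10, -0.53, 0.84, 0.22 and 0.15 on arrays 3, 4, 11, 12 and 14. Both signs occurred in each orientation, and the coefficient, -0.23 ± 0.21 (SE; adjusted p = 0.780), was the lowest of the nexins, but -0.07 without array 13.

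Snx10 is a nexin of endosomes and lysosomes, and its probe 2 ranged from 0.08 to 0.75 in Cy5 with a median of 0.25, and from -0.36 to 0.51 in Cy3 with a median of 0.09. The orientations shared part of their range, and 10 of 13 values were positive. Shared coefficients were 0.19 ± 0.08 (SE; adjusted p = 0.491) for that probe and 0.02 ± 0.06 (SE) for probe 1. In the dye-switching component the probes stood on opposite sides, at 0.12 ± 0.08 and -0.11 ± 0.06 (SE). Snx17, an adaptor that recycles receptors of the LDL receptor family, had -0.05 ± 0.08 and -0.01 ± 0.10 (SE) in the dye-switching component. Snx9 and Snx18, which act at the endocytic pit, had 0.05 ± 0.05 and 0.00 ± 0.06 (SE). Snx8, Snx12 and Snx19 had 0.17 ± 0.11, -0.12 ± 0.15 and -0.03 ± 0.12 (SE).

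Of the 10 genes with 2 probes, 8 had both probes on 1 side of 0 in the dye-switching component, the exceptions being Snx10 and Vps33a. In the shared component 8 did, the exceptions being Rab5b and Rab6a. None of these probes passed the adjusted threshold.

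Other genes of the trafficking routes were taken from 6 lists, and in each of them 0 probes passed the adjusted threshold in either component. Of 16 genes on the route of Rab9 (cargo receptors, effectors and regulators), 3 had a tested probe. Denn2b, a regulator of Rab proteins, had a dye-switching coefficient of -0.20 ± 0.12 (SE), Npc2, a carrier of cholesterol in the lysosome, -0.11 ± 0.07 (SE), and Rabepk, a kelch protein that binds Rab9, -0.07 ± 0.07 (SE). None of the 3 passed the test.

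The other lists had medians from -0.05 to 0.00, against 0.01 over all tested probes. In the order below, 5 of 10, 2 of 10, 9 of 20, 5 of 13 and 5 of 15 probes were positive, against 52.8%. Regulators and partners of Rab proteins (10 of 49 genes tested) had a median dye-switching coefficient of 0.00, and SNAREs, which fuse membranes (10 of 42), -0.04. Clathrin, adaptors and other coat subunits (18 of 44 genes, 20 probes) had -0.05, tethers of the Golgi and plasma membrane (11 of 26 genes, 13 probes) -0.02, and lysosomal genes (14 of 30 genes, 15 probes) -0.02. The largest coefficient of these lists was that of Sec16b, of the sites where COPII vesicles form, at 1.15 ± 0.71 (SE), which did not pass. Within these lists, which leave out the route of Rab9, an unadjusted p under 0.05 in limma was reached by Stx5a (-0.18) in the dye-switching component. In the shared component Vti1a (0.22), Rabggtb (0.22), Sec31a (0.17), Ap3d1 (-0.17) and a probe of Exoc3 (-0.34) reached it. Among the lysosomal genes, Lamp1, of the lysosomal membrane, had -0.09 ± 0.05 and -0.01 ± 0.16 (SE) on 2 probes, and the protease Ctsd had -0.10 ± 0.07 (SE). The largest positive coefficients of that list were those of Ctsa, 0.25 ± 0.13 (SE), and Atp6v0d1, 0.11 ± 0.06 (SE).

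The value filter left several genes of these families without a result. Rab7, the other GTPase of late endosomes, had 3 probes with values on 3, 2 and 2 arrays, and Snx27 had 3 probes with 1 array each. Of the 89 probes below the filter, 26 had no value on any array and 5 fell short by 1 array in their thinner orientation, for Rab21, Rab43, Trappc11, Vps36 and Vps37b. Just inside it, 4 members had 4 arrays in 1 orientation, namely Copa, Rab3ip probe 1, Rab5b probe 2 and Snx12. A probe without a value says nothing of whether its gene was expressed.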

How the data were processed

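The values that the authors deposited are log ratios of the 2 channels, unit log2 here. The labels give no base, which was taken as 2. The largest size, 12.33, exceeds 11.09, the natural log of the largest 16-bit ratio. That bound holds for unprocessed intensities only, so it does not settle the base, and fold values depend on this choice. Column medians lay between -0.006 and 0.016, so arrays were centred before deposit. Direction, spot filter and normalisation are not stated in the labels, and intensities were not analysed here. Probes were named through the platform annotation, with aliases updated through RefSeq (GRCm38.p6); no member was renamed.

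Values were used as deposited, in limma 3.58.1 (R 4.3.3, lmFit and eBayes) with a mean and an orientation term, over all 8058 probes with values on at least 4 arrays of each orientation. Adjusted p-values are Benjamini-Hochberg over these, with a threshold of 0.05. The procedure was tested on simulated data. Named were Rab9, the 3 largest and 3 smallest coefficients of each component, and members with an unadjusted p under 0.05; others are given by role. The members and lists were chosen with earlier results of these data known. The number of arrays limits the precision. Alternatives comprised 14 settings and each of the 15 arrays left out.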

Additional observations from a re-analysis of the deposited data

Results flagged for a closer look

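Sets of values of the named members in 1 dye orientation were checked for an array that stood far from the rest, by the gap to its neighbour over the range of the set. Of 44 sets, 6 had one. Chance gives about 1 in 20, but these members were named for extreme coefficients or low p-values, which a single distant array can produce, so the 2 rates are not comparable. Rab3b read -5.42 on array 8 with mutant RNA in Cy3, the next value being -0.19. Vps33a probe 2 read 5.20 on array 11 in Cy3, the next being 0.44. Arf4 read -3.63 on array 7 in Cy3, the next being -0.11, and Vps8 read -2.70 on array 6 in Cy5, the next being -0.61. The remaining sets had smaller gaps: Arl1 read -0.16 on array 8 in Cy3, the next being 0.02, and Trappc6a read -0.30 on array 9 in Cy5, the next being 0.23. These 6 values lay on 5 arrays, with array 8 named for Rab3b and Arl1.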

How the results depend on the processing

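The dye-switching component called 1 of 75 members as reported (52 of 8058 tested probes). Robust regression called 2 members there, Rab9 and Rab2a (204 of 8058 probes). With 1 value per run of arrays 0 members were called (2 probes), and Rab9 stood at 0.746. Under the other settings Rab9 lay between 0.714 and 0.765 and stayed past the threshold. The shared component called 0 members under every setting run, and 0 probes in all except with robust regression (107). With 1 array left out, Rab9's shared coefficient lay between -0.0777 and 0.0112, turning positive without array 6, 7, 11 or 13. That of Arf4 lay between -0.577 and 0.00734 (without array 7), and the dye-switching coefficient of Vps8 between -0.282 and 0.00497 (without array 6). Of 613 alternative values of the 22 other named coefficients, 611 kept their direction and their side of the threshold. None of the 22 was called as reported, so keeping that side means staying uncalled. Rab2a, which robust regression called, is not among them. The labels give no replicate number shared between the orientations; with the runs of arrays as a random block, Rab9 stood at 0.764 (adjusted p = 0.000149).

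A ratio's direction, the spot filter and the animal behind each array are not given, so neither component can be tied to genotype. Signal over background was not analysed here.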
